A study of Mus musculus with 10 samples.

Results

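Transcripts of 10 regulators of energy metabolism were measured: those of the peroxisome proliferator-activated receptors Ppara, Ppard and Pparg, the coactivators Ppargc1a and Ppargc1b (PGC-1α and PGC-1β), the estrogen-related receptors Esrra, Esrrb and Esrrg, the retinoid X receptor Rxra, and the nuclear respiratory factor Nrf1. They were taken by gene symbol, using probe sets annotated to a single symbol and, per gene, its brightest one by the mean of all arrays. All 10 were measured, on 11 probe sets, among 19938 genes. Their transcripts were compared between mice with a knockdown (KD) of VAChT, written KDHOM in the title for whole hearts, and wild-type (WT) mice. VAChT, the product of Slc18a3, fills vesicles with acetylcholine, the transmitter of the vagus nerve. The groups were 3 arrays of KD and 3 arrays of WT ventricular cardiomyocytes, and 2 arrays of KD and 2 arrays of WT whole hearts. All mice were male, C57BL/6 and 3 months old, and none was treated. Each array held RNA pooled from 2 samples. The labels do not say in which cells VAChT was reduced or whether the arrays came from separate animals, so p-values rest on array-to-array variation that could in part be technical.

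PPARs and ERRs are nuclear receptors that bind DNA and switch on genes for the uptake and oxidation of fatty acids and for mitochondrial respiration, the main energy source of the adult heart. PPARs bind DNA together with RXR and respond to fatty acids, whereas ERRs have no known natural hormone and depend largely on coactivators. PGC-1α and PGC-1β do not bind DNA themselves. They dock on PPARs, ERRs and NRF1 and raise transcription of the genes these proteins occupy. NRF1 drives nuclear genes of the respiratory chain and of mitochondrial DNA maintenance.

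The upstream DNA of Ppara and Ppargc1a is shown because these were the members whose heart values stood furthest from WT. Both are the 250 bases before the annotated start in RefSeq (GRCm38.p6), written 5′ to 3′ on the gene's own strand. Capitals in the Ppara sequence, from chr15:85735526-85735775 on the plus strand, mark the core of the NRF1 element, a palindrome, and capitals in the Ppargc1a sequence, from chr5:51567726-51567975 on the minus strand, mark the reverse complement of TGACG, the half-site bound by the cyclic AMP response factor CREB1.
Ppara: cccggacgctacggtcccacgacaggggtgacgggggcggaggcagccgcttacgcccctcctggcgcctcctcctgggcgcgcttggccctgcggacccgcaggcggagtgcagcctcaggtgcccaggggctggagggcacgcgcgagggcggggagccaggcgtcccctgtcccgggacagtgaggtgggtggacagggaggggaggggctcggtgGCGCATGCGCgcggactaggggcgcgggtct
Ppargc1a: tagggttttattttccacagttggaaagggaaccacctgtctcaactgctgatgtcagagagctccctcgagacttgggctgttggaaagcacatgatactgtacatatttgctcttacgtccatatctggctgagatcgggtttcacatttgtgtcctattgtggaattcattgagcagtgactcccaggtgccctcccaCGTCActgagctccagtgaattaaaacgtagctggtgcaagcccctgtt
The Ppara core began 31 bases before the start, in a window with a G and C content of 76.4%. The Ppargc1a half-site began 49 bases before the start, in a window with a G and C content of 48.0%. Both strands were searched in 32851 windows of 27025 genes. The NRF1 core was present in 0.782% of them and the TGACG half-site in 17.8%. Of the members, 9 had a window, 17 windows in all. Among these only Ppara's held the NRF1 core, while TGACG on either strand lay in windows of Ppargc1a, Ppara and Esrrb. It is not capitalised in the Ppara sequence. The half-site AGGTCA, the unit that nuclear receptors recognise, was found in 14.0% of all windows and, among members, in windows of Pparg and Rxra. The ERR element TNAAGGTCA (1.14% of all windows) and the PPAR-RXR direct repeat, AGGTCA followed by any base and AGGTCA again (0.0335%), both of which contain bases of that half-site, matched no member window as spelled here. These matches describe letters in a window and not occupied sites.

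The deposited values were log2 intensities after RMA. Array medians over the named genes were 6.19 to 6.27 in cardiomyocytes and 7.54 to 7.59 in hearts, which points to separate normalization, and KD was compared with WT only within cardiomyocytes or within hearts. The transcript of the targeted gene, Slc18a3, did not check the labels. It was 6.22, 6.52 and 6.21 on KD cardiomyocyte arrays, against 6.06, 6.37 and 6.04 on WT arrays, and 7.31 and 7.84 on KD heart arrays, against 7.34 and 7.72 on WT arrays. Where its probes lie relative to the altered part of the gene was not known. Replicate arrays correlated at 0.992 to 0.995 in cardiomyocytes, 0.980 in KD hearts and 0.993 in WT hearts. KD heart array 1 stood apart in its mean log2 level of 9 measured thymocyte and T cell markers, which was 9.69, against 6.83 on KD heart array 2 and 6.60 and 6.90 on the WT heart arrays. The heart difference of each regulator is therefore also given without it. Those values rest on KD heart array 2 as the only KD heart, and that array had shifts of its own. Its mean of 6 atrial markers was 9.15, against 10.11 on KD heart array 1 and 10.42 and 10.29 on the WT heart arrays. Its mean of 7 adipocyte markers was 8.16, against 8.41 on KD heart array 1 and 8.58 and 8.54 on the WT heart arrays.

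None of the 10 regulators differed between KD and WT in cardiomyocytes by limma's moderated test (smallest adjusted p 1, Benjamini-Hochberg over all genes). The background was the same: 0% of the 19938 genes passed an adjusted p of 0.05, and 2.1%, or 419 genes, had an unadjusted p under 0.05. In cardiomyocytes 5 members were lower and 5 higher in KD. The median difference was -0.0086 and the range -0.13 to 0.20 on the log2 scale. KD and WT arrays overlapped for all 10, where 6.21% of all genes did not overlap. The 95% confidence interval of the difference stayed within a 1.5-fold change in either direction for each of the 10. In hearts limma again called 0 members at an adjusted p of 0.05 and 0% of all genes, while 4.93%, or 982 genes, had an unadjusted p under 0.05, among them 1 member, Ppara. There 5 members were lower and 5 higher in KD, with a median of -0.04 and a range of -0.36 to 0.12. The KD hearts were below both WT hearts for 2 members, Ppara and Esrra, which is 20% of the members, where 15.4% of all genes did so. The interval stayed within 1.5-fold for 9 members and within 2-fold for all 10.

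**Figure D1:**
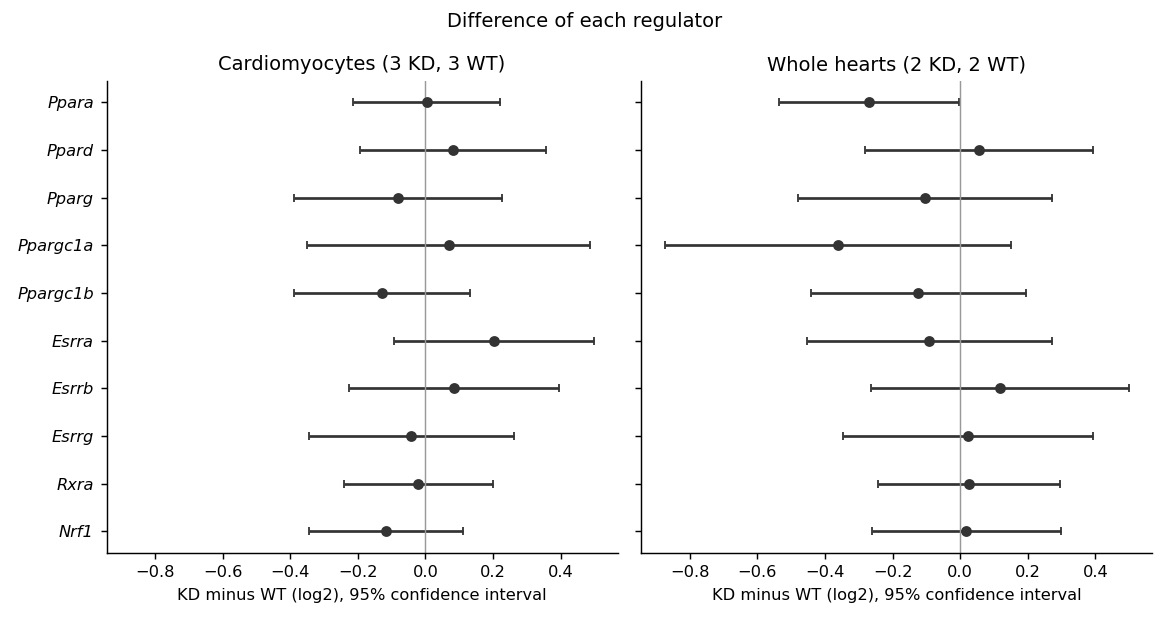
Difference of each regulator between KD and WT (horizontal axis, log2) in cardiomyocytes (left) and whole hearts (right). Points are limma estimates and bars 95% confidence intervals. Every cardiomyocyte interval crosses 0, and in hearts that of Ppara, -0.54 to -0.01, does not.

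Ppara, which encodes PPARα, the receptor that sets the fatty acid oxidation programme of heart muscle, measured 9.35, 9.26 and 9.14 on KD cardiomyocyte arrays, against 9.25, 9.20 and 9.28 on WT arrays. The KD values enclosed the WT values, and KD minus WT was 0.0036 (SE 0.10, 95% confidence interval -0.21 to 0.22). In hearts Ppara measured 8.75 and 8.73 on KD arrays, against 9.11 and 8.90 on WT arrays. Both KD hearts were below both WT hearts, and the means were 8.74 ± 0.01 for KD hearts and 9.01 ± 0.15 for WT hearts (SD, n = 2 each). The difference was -0.27 (SE 0.12), a change of -17.1%, with an unadjusted p of 0.046 and an adjusted p of 1 by limma. Without KD heart array 1 it was -0.28 and without WT heart array 1 it was -0.17. In whole hearts, fewer cells of a type and less RNA per cell cannot be told apart. The cardiomyocyte markers, listed below, were also lower in KD hearts, and their part in the Ppara value was not tested.

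Ppard encodes PPARδ, a widely expressed receptor that overlaps with PPARα in its target genes. It measured 9.47, 9.42 and 9.45 in KD cardiomyocytes, against 9.39, 9.51 and 9.19 in WT, with a difference of 0.08 (SE 0.13). In hearts the values were 8.60 and 9.05 in KD, against 8.69 and 8.85 in WT. KD enclosed WT, and the difference of 0.05 (SE 0.16) was smaller than the gap between the KD hearts. Without KD heart array 1 it was 0.28.

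Pparg encodes PPARγ, the receptor that directs fat cell formation and is otherwise prominent in macrophages. It measured 7.97, 7.96 and 8.02 in KD cardiomyocytes, against 8.43, 7.88 and 7.87 in WT. WT array 1 alone was high, and the difference of -0.08 (SE 0.14) became 0.11 without it. That array also had the highest mean of 8 endothelial markers, 8.95 against 8.61 to 8.83 on the other 5 cardiomyocyte arrays, and the highest mean of 8 fibroblast markers, 7.26 against 6.70 to 7.11. Other lists did not peak there. The mean of 8 macrophage markers was highest on WT array 3, at 6.21, against 5.78 on WT array 1. The mean of the adipocyte markers on WT array 1, 5.94, was the lowest of the WT arrays, although Fabp4, alone of the 7 measured, was highest there, at 10.78. The part of these markers in the Pparg value was not tested. In these cells the mean of the 7 adipocyte markers was 5.88 to 6.01 in KD and 5.94 to 6.09 in WT, below every array's median. Of the 7, 5 averaged below the array median, among them Adipoq, the fat cell hormone adiponectin, at 3.83 to 4.28. Plin1, at 6.53 to 6.79, and Fabp4, at 10.05 to 10.78, lay above it. In hearts Pparg measured 8.31 and 8.50 in KD, against 8.43 and 8.58 in WT, which overlapped (difference -0.11, SE 0.17). The adipocyte markers in hearts were lower in KD for 7 of 7, with means of 8.16 to 8.41 in KD and 8.54 to 8.58 in WT, and the difference of Pparg without KD heart array 1 was -0.01.

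**Figure D2:**
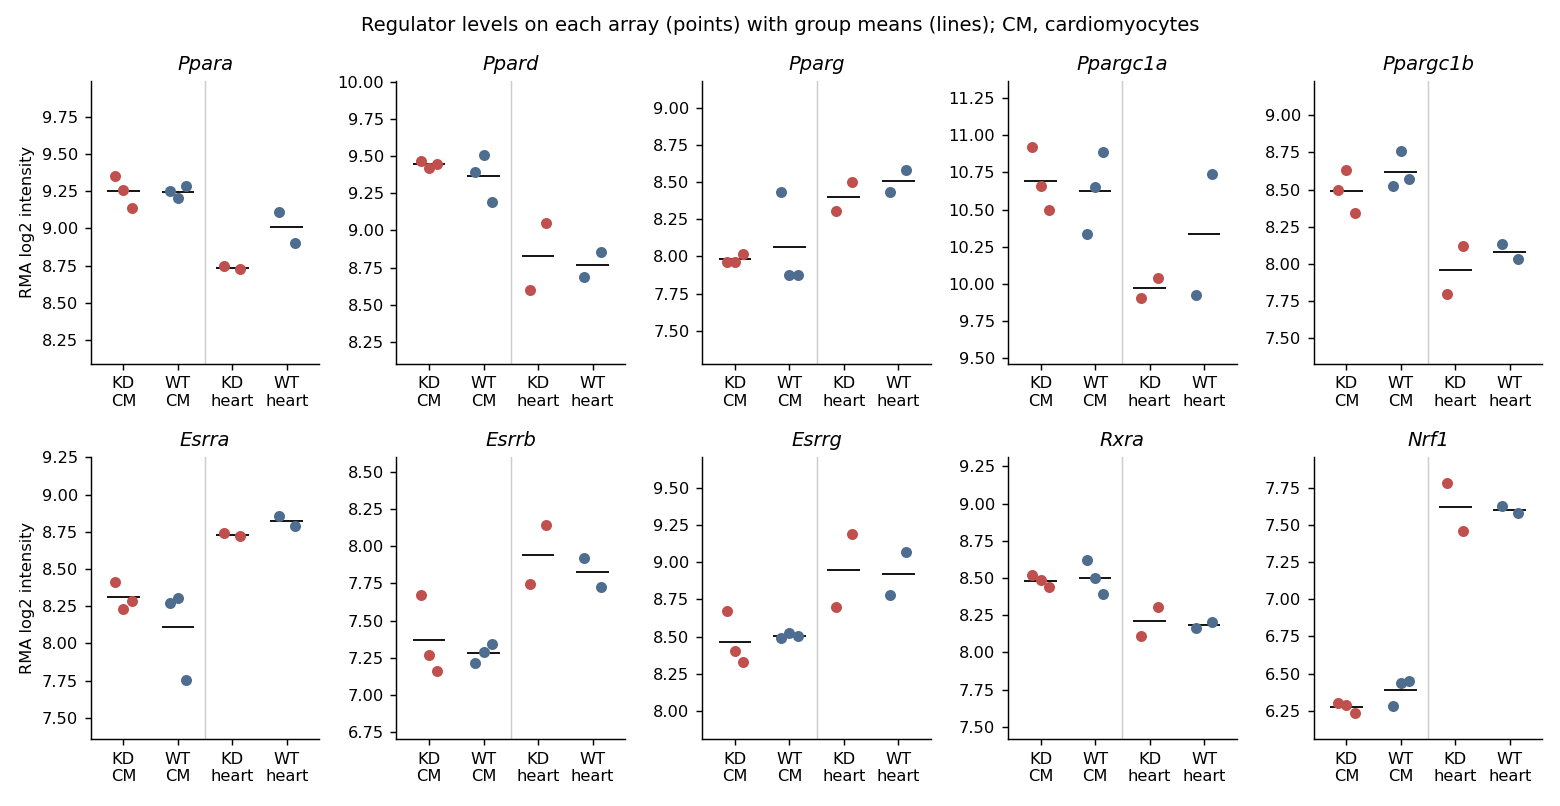
RMA log2 intensity (vertical axes, each spanning the same range) of the 10 regulators on every array, KD left of WT for cardiomyocytes (CM) and for whole hearts. Points are arrays and lines group means. Only Ppara and Esrra have both KD hearts below both WT hearts, and the widest gap within a group is that between the WT hearts for Ppargc1a, at 9.93 and 10.74.

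Ppargc1a encodes PGC-1α, the inducible coactivator that responds to cold, exercise and energy demand. Its brighter probe set measured 10.92, 10.66 and 10.50 in KD cardiomyocytes, against 10.34, 10.65 and 10.89 in WT. The groups covered the same range, with a difference of 0.07 (SE 0.19). In hearts it measured 9.90 and 10.04 in KD, against 9.93 and 10.74 in WT. KD minus WT was -0.36 (SE 0.24, 95% confidence interval -0.87 to 0.15, unadjusted p 0.15 by limma), and it rested on WT heart array 2. Without that array it was 0.05, and without KD heart array 1 it was -0.29. Ppargc1a was the member with the largest spread among arrays of a kind: after subtraction of the mean of cardiomyocytes or of hearts, its SD over the 10 arrays was 0.28, which exceeded that of 96.7% of genes, against a median of 0.13 over all genes. Rxra had the smallest spread of the members, 0.076, and only 7.22% of genes had less.

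The dimmer Ppargc1a probe set gave another picture in hearts. The platform annotation lists 3 accessions for it and 8 for the brighter probe set. It measured 9.02 and 8.28 on KD heart arrays, against 9.45 and 9.70 on WT arrays. Both KD hearts lay below both WT hearts, and the KD arrays differed from each other by more than the WT arrays did. KD minus WT was -0.93 (SE 0.27, 95% confidence interval -1.51 to -0.35), a fold of 0.526, with an unadjusted p of 0.0042 and an adjusted p of 0.957 by limma over 21789 probe sets. Leaving out each heart array in turn gave -1.30 to -0.56. In cardiomyocytes the same probe set measured 10.20, 9.92 and 9.36 in KD, against 9.70, 9.71 and 10.06 in WT, a difference of 0.0011 (SE 0.22). The heart effect minus the cardiomyocyte effect was -0.93 (SE 0.34, unadjusted p 0.019, adjusted p 1), against -0.43 (SE 0.31) for the brighter probe set. Which Ppargc1a transcripts each probe set detects was not resolved with the annotation used.

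**Figure D3:**
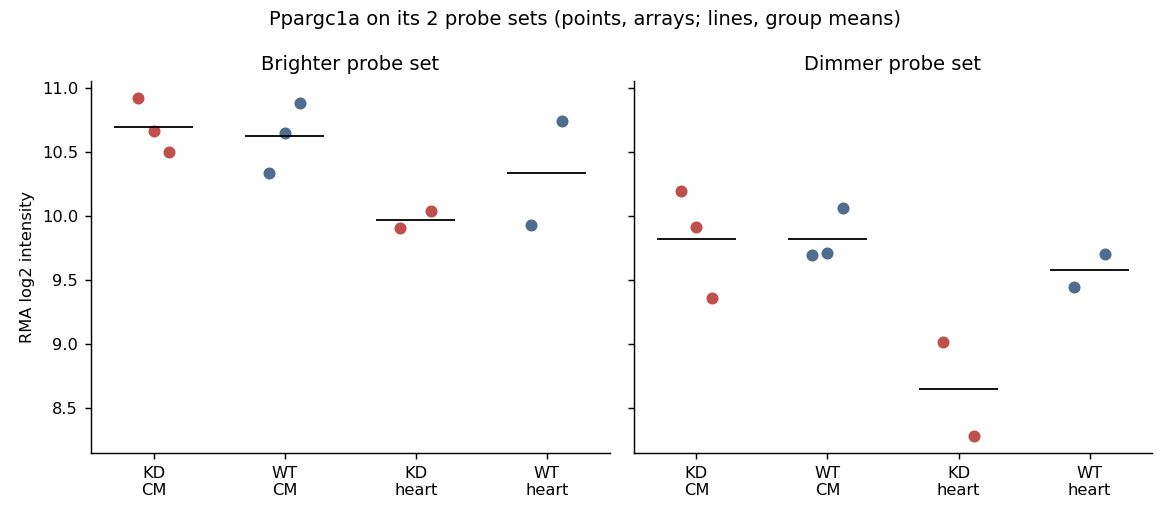
RMA log2 intensity (vertical axis) of Ppargc1a on its brighter (left) and dimmer (right) probe set for KD and WT cardiomyocytes (CM) and hearts. Points are arrays and lines group means. On the dimmer probe set both KD hearts, 9.02 and 8.28, lie below the WT hearts, 9.45 and 9.70, and on the brighter one the groups overlap.

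Ppargc1b encodes PGC-1β, a related coactivator with a less inducible expression. It measured 8.50, 8.63 and 8.34 in KD cardiomyocytes, against 8.52, 8.76 and 8.57 in WT, with a difference of -0.13 (SE 0.12). In hearts it measured 7.80 and 8.12 in KD, against 8.14 and 8.03 in WT, with a difference of -0.12 (SE 0.15). The arrays overlapped in both kinds of sample, and without KD heart array 1 the heart difference was 0.04.

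Esrra encodes ERRα, which with PGC-1α controls respiratory chain genes. It measured 8.41, 8.23 and 8.29 in KD cardiomyocytes, against 8.27, 8.30 and 7.75 in WT. Only WT array 3 was low. The difference of 0.20 (SE 0.14), the highest of the members in cardiomyocytes, was 0.02 without that array. In hearts Esrra measured 8.74 and 8.72 in KD, against 8.86 and 8.79 in WT. The arrays did not overlap, but the difference of -0.09 was smaller than its SE of 0.17. Without KD heart array 1 it was -0.10.

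Esrrb encodes ERRβ, best known from embryonic stem cells and the placenta. It measured 7.67, 7.27 and 7.16 in KD cardiomyocytes, against 7.22, 7.29 and 7.34 in WT (difference 0.08, SE 0.14). In hearts it measured 7.74 and 8.14 in KD, against 7.92 and 7.72 in WT (difference 0.12, SE 0.18). Esrrg encodes ERRγ, the ERR of highly oxidative tissues. It measured 8.67, 8.40 and 8.33 in KD cardiomyocytes, against 8.49, 8.52 and 8.50 in WT (difference -0.04, SE 0.14), and 8.70 and 9.19 in KD hearts, against 8.78 and 9.07 in WT hearts (difference 0.02, SE 0.17). The KD arrays of both genes spread more widely than the WT arrays in each kind of sample. Without KD heart array 1 their heart differences were 0.32 for Esrrb and 0.27 for Esrrg, and neither passed the threshold.

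Rxra encodes RXRα, the partner with which PPARs bind DNA. It measured 8.52, 8.49 and 8.44 in KD cardiomyocytes, against 8.62, 8.50 and 8.39 in WT, and 8.11 and 8.31 in KD hearts, against 8.16 and 8.20 in WT hearts. The differences were -0.02 (SE 0.10) in cardiomyocytes, with a 95% confidence interval of -0.24 to 0.20, and 0.03 (SE 0.12) in hearts. Nrf1 measured 6.30, 6.29 and 6.23 in KD cardiomyocytes, against 6.29, 6.44 and 6.45 in WT (difference -0.12, SE 0.11), and 7.78 and 7.46 in KD hearts, against 7.62 and 7.58 in WT hearts (difference 0.02, SE 0.13). The arrays overlapped for both genes in both kinds of sample. Without KD heart array 1 the heart differences were 0.13 for Rxra and -0.14 for Nrf1, the second with its sign turned.

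The heart effect minus the cardiomyocyte effect was tested for each member in the same fit. The lowest values were -0.43 for Ppargc1a (SE 0.31, unadjusted p 0.18), -0.29 for Esrra (SE 0.22, unadjusted p 0.20) and -0.27 for Ppara (SE 0.16, unadjusted p 0.11), each with an adjusted p of 0.999 by limma. Ppargc1a was at -0.02 without WT heart array 2, Esrra at -0.12 without WT cardiomyocyte array 3 and Ppara at -0.17 without WT heart array 1. No member was called, and neither was any other gene (0% called, with 3.49%, or 696 genes, at an unadjusted p under 0.05). The other members ranged from -0.03 to 0.13.

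Because the cardiomyocyte and heart arrays had different medians, levels in the 2 kinds of sample were set side by side only as the percentile of a gene among all 19938 genes of its array, with no test. Ppargc1b had its highest percentiles in cardiomyocytes, 83.7 to 88.0 (median 85.6), against 56.6 to 65.1 (median 64.0) in hearts. Rxra covered 84.4 to 86.1 in cardiomyocytes, against 64.2 to 69.9 in hearts. Ppard covered 91.3 to 93.4 in cardiomyocytes, against 75.4 to 84.0 in hearts, and Ppara 90.9 to 92.1, against 78.0 to 83.8. Every cardiomyocyte array was above every heart array for these 4 genes and for Pparg, Ppargc1a and Esrrb. The share of all genes with that order was not counted, so it is not known whether the regulators stand out in it. Ppargc1a covered 96.6 to 98.1 in cardiomyocytes, against 92.4 to 96.5 in hearts. The ranges overlapped for Esrra, Esrrg and Nrf1, whose medians were 83.1, 85.2 and 51.8 in cardiomyocytes, against 78.7, 80.9 and 51.7 in hearts. Cardiomyocyte and heart RNA were labelled after different manuals, so labelling and kind of sample cannot be told apart in these values.

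The genes most like Ppara over the 10 arrays, after subtraction of the mean of each kind of sample, were Hadha (Pearson correlation 0.97), Decr1 (0.95) and Vdac3 (0.95), out of 13082 genes ranked. Hadha and Decr1 encode enzymes of fatty acid oxidation and stood in the list of PPAR targets. Vdac3 encodes a channel of the outer mitochondrial membrane. For Ppargc1a they were Cap2 (0.96), an actin-binding protein of muscle, Plag1 (0.91) and Twsg1 (0.91). For Esrrg they were Tbx5 (0.97), a cardiac transcription factor, Zfp952 (0.97) and Naf1 (0.97). These are the highest of many correlations. The means of KD and WT were not subtracted, so differences between KD and WT enter them. In hearts KD minus WT was -0.27 for Ppara, -0.23 for Hadha, -0.33 for Decr1 and -0.38 for Vdac3. Arrays of the same kind of sample share their labelling and apparently their normalization, and the correlations are given as a description.

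Target genes of the regulators were described through lists of textbook members. The list of PPAR targets in fatty acid handling had 23 of its 28 genes measured. In cardiomyocytes limma called 0 of them, and 18 were lower and 5 higher in KD, where 50% of all genes were lower. The median was -0.06 and none of the 23 had non-overlapping arrays. The smallest p-values there belonged to Mlycd, malonyl-CoA decarboxylase, with a difference of -0.20 (SE 0.11), and to Ehhadh, Cd36 and Plin2, with -0.24, -0.14 and -0.22. Leaving out each cardiomyocyte array in turn gave -0.25 to -0.13 for Mlycd, -0.40 to -0.10 for Ehhadh, -0.19 to -0.093 for Cd36 and -0.36 to -0.051 for Plin2, the last being smallest without WT array 3. The mean of the list was spread among KD cardiomyocyte arrays, at 0.07, -0.19 and -0.15 relative to the WT mean, against -0.06, -0.04 and 0.10 on the WT arrays.

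In hearts all 23 measured PPAR targets were lower in KD, against 47.4% of all genes. Their median was -0.31, with a range of -0.74 to -0.08. None passed an adjusted p of 0.05 by limma. An unadjusted p under 0.05 was found for 10 of the 23, where 2.49% of all genes had one in that direction, and both KD hearts lay below both WT hearts for 16, or 69.6%, where 15.4% of all genes did. Hadhb, part of the enzyme complex for the last steps of long-chain fatty acid oxidation, measured 12.92 and 12.62 in KD hearts, against 13.34 and 13.10 in WT hearts (difference -0.45, SE 0.13). Cd36, the main fatty acid transporter of the heart, measured 13.11 and 12.99 in KD, against 13.41 and 13.29 in WT (difference -0.31, SE 0.11). Etfdh, which passes electrons from fatty acid oxidation to ubiquinone, measured 12.81 and 12.38 in KD, against 13.22 and 12.90 in WT (difference -0.46, SE 0.15). Acot2, a mitochondrial acyl-CoA thioesterase, measured 10.22 and 10.13 in KD, against 10.58 and 10.56 in WT (difference -0.40, SE 0.15). Pdk4, the kinase that restrains pyruvate oxidation, had the lowest difference, -0.74 (SE 0.30), and was named after its value was seen. The list mean was -0.33 and -0.26 on the KD heart arrays relative to the WT mean, against -0.02 and 0.02 on the WT arrays.

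The list of ERR and PGC-1 targets in energy metabolism had 22 of 25 genes measured. In cardiomyocytes limma called 0, and 17 were higher and 5 lower in KD (50% of all genes lower). Their median was 0.02 and their range -0.07 to 0.12. In hearts limma also called 0, and 21 were lower and 1 higher (47.4% of all genes lower). The median was -0.25 and the range -0.60 to 0.06. An unadjusted p under 0.05 was found for 11, and for 18, or 81.8%, both KD hearts lay below both WT hearts, where 2.49% and 15.4% of all genes did so in that direction. Vegfa, the vessel growth factor that PGC-1α induces through ERRα, measured 10.13 and 9.82 in KD hearts, against 10.65 and 10.50 in WT hearts (difference -0.60, SE 0.14). In cardiomyocytes it measured 10.86, 11.07 and 10.82 in KD, against 10.98, 10.84 and 10.92 in WT. Idh3a, a subunit of the tricarboxylic acid cycle enzyme isocitrate dehydrogenase, measured 12.26 and 12.24 in KD hearts, against 12.64 and 12.47 in WT hearts, and Cycs, cytochrome c, measured 12.44 and 12.41 in KD, against 12.86 and 12.58 in WT.

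Uqcrfs1, the Rieske subunit of respiratory complex III, measured 10.33 and 10.29 in KD hearts, against 10.88 and 10.67 in WT hearts (difference -0.46, SE 0.12). In cardiomyocytes it measured 10.33, 10.31 and 10.32 in KD, against 10.31, 10.22 and 10.11 in WT (difference 0.11, SE 0.10). The log2 values did not overlap in either kind of sample and the order was opposite. In cardiomyocytes the separation was narrow, with the lowest KD array at 10.313 and the highest WT array at 10.307. As percentiles within the array the cardiomyocyte groups overlapped, at 96.50 to 96.78 in KD and 95.98 to 96.56 in WT. The ERR and PGC-1 list mean was -0.23 and -0.25 on the KD heart arrays relative to the WT mean, against 0.06 and -0.06 on the WT arrays. The medians of the heart effect minus the cardiomyocyte effect were -0.22 for the PPAR targets, of which 20 of 23 were below 0, and -0.28 for the ERR and PGC-1 targets, of which 21 of 22 were. Of all genes 48.8% were below 0. The trend of the heart values with brightness, described below, was not removed from these medians.

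The list of the NRF1 axis and mitochondrial genome maintenance had all 16 genes measured. In cardiomyocytes 7 were lower and 9 higher in KD, with a median of 0.02, and in hearts 13 were lower and 3 higher, with a median of -0.10, where 50% and 47.4% of all genes were lower in the 2 kinds of sample. Limma called 0 in either. Tfb2m, a factor of mitochondrial transcription, measured 9.62 and 9.33 in KD hearts, against 9.94 and 9.76 in WT hearts (difference -0.38, SE 0.15). Alas1, which begins heme synthesis, measured 11.66 and 11.66 in KD, against 11.92 and 11.94 in WT. Both KD hearts lay below both WT hearts for 6 of the 16, or 37.5%, where 15.4% of all genes did so.

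The list of partners, coregulators and upstream regulators had 29 of 31 genes measured, and limma called 0 in either kind of sample. In cardiomyocytes 21 were lower and 8 higher in KD, with a median of -0.06. The smallest p-values belonged to Prkaa1, a catalytic subunit of AMP-activated kinase, with a difference of -0.27 (SE 0.13), and to Klf15, a cardiac factor of lipid and amino acid metabolism, with 0.30 (SE 0.14). Without WT cardiomyocyte array 3 they were -0.13 and 0.21. In hearts 13 were lower and 16 higher, with a median of 0.02, where 50% and 47.4% of all genes were lower in cardiomyocytes and hearts. Nrip1, which encodes the corepressor RIP140 of ERRs and PPARs, measured 8.80 and 8.46 in KD hearts, against 8.34 and 8.25 in WT hearts (difference 0.34, SE 0.18, and 0.17 without KD heart array 1), and Rxrg, a further PPAR partner, measured 8.62 and 8.75 in KD, against 8.88 and 8.88 in WT (difference -0.20, SE 0.12).

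**Figure D4:**
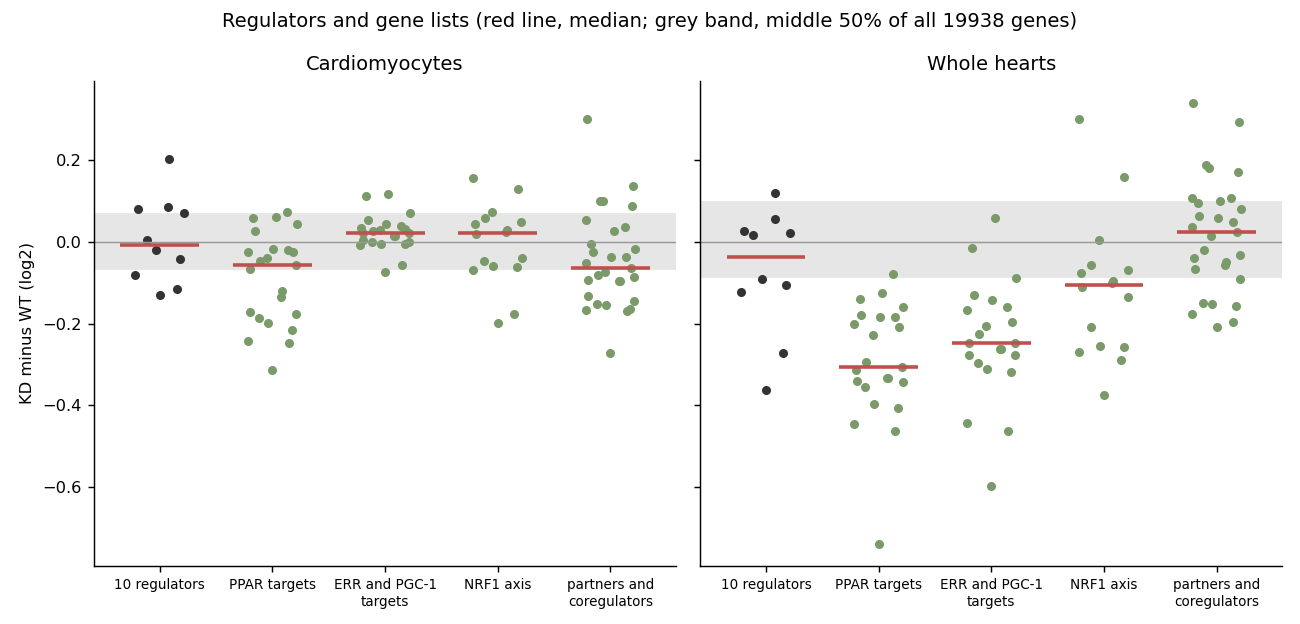
Difference between KD and WT (vertical axis, log2) of the 10 regulators and of the measured genes of 4 lists, in cardiomyocytes (left) and whole hearts (right). Points are genes, red lines medians and the grey band the middle 50% of all 19938 genes. In hearts all 23 PPAR targets and 21 of 22 ERR and PGC-1 targets lie below 0, whereas the regulators divide into 5 below and 5 above.

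The heart differences of all genes varied with brightness. The brightest decile of genes had a median of -0.09, with 73.2% lower in KD, whereas the dimmest decile had a median of 0.03, with 39.1% lower. In the brightest decile lay 16 of the 23 PPAR targets and 22 of the 22 ERR and PGC-1 targets, but of the regulators only Ppargc1a. After a smooth trend on intensity was removed, 23 of 23 PPAR targets were lower in KD hearts, with a median of -0.18, and 18 of 22 ERR and PGC-1 targets, with a median of -0.12, against 49.3% of all genes. Both KD hearts were then below both WT hearts for 10 of the 23 and 11 of the 22, against 14.9% of all genes. The values of Ppara and Ppargc1a became -0.23 and -0.27. Without KD heart array 1, and with the trend left in, the medians were -0.24 for both target lists. With all heart arrays and the trend left in they were -0.31 for the PPAR targets and -0.25 for the ERR and PGC-1 targets. Without KD heart array 1, 21 of 23 and 20 of 22 were lower, against 41.4% of all genes. Of the NRF1 axis 13 of 16 were then lower, with a median of -0.13, and of the regulators 5 of 10, with a median of 0.014.

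**Figure D5:**
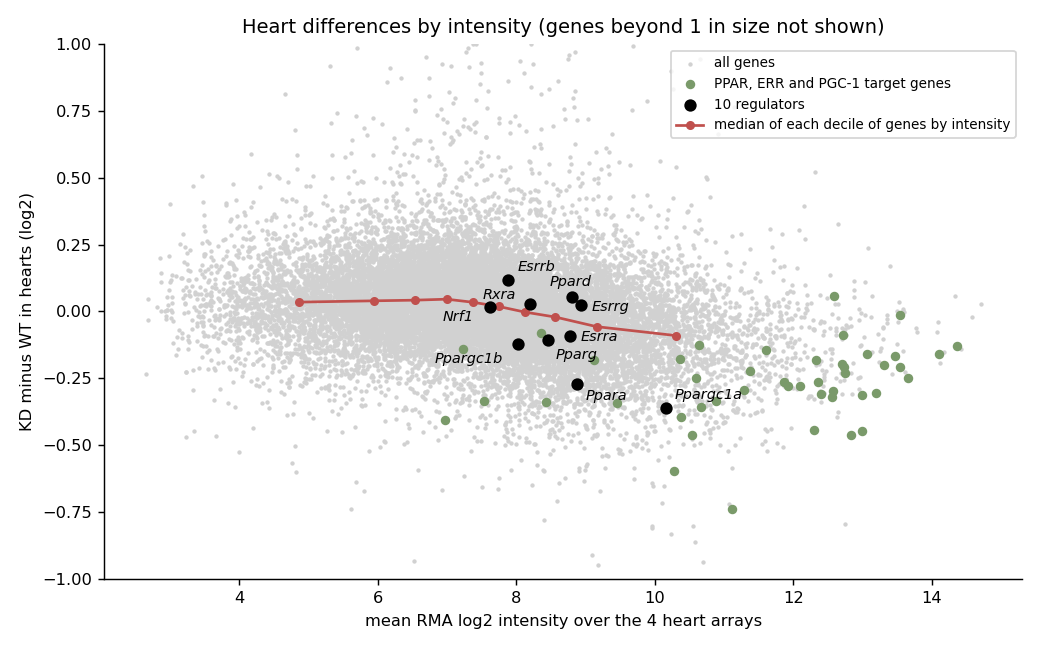
Difference between KD and WT hearts (vertical axis, log2) against mean RMA log2 intensity over the 4 heart arrays (horizontal axis). Grey points are all genes within the axis limits, green points PPAR, ERR and PGC-1 targets, black points the 10 regulators and the red line the median of each decile of genes by intensity, which goes from 0.03 in the dimmest decile to -0.09 in the brightest.

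Markers of several cell types moved with the heart comparison. Of all genes 47.4% were lower in KD hearts, and of the brightest decile 73.2%. The trend on intensity was not removed for the marker counts. The mean of 8 cardiomyocyte markers was 12.88 to 13.00 in KD hearts and 13.05 to 13.14 in WT hearts, with 8 of 8 lower. Pln stands both in this list and among the ERR and PGC-1 targets. The mean of 8 endothelial markers was 10.13 to 10.23 in KD and 10.29 to 10.47 in WT, and that of 8 fibroblast markers 9.77 to 9.90 in KD and 10.09 to 10.17 in WT, each with 8 of 8 lower. The mean of 6 smooth muscle markers was 9.74 to 9.87 in KD and 9.92 to 9.93 in WT, with 5 of 6 lower. The 6 atrial markers averaged 9.15 to 10.11 in KD and 10.29 to 10.42 in WT, with 6 of 6 lower, while the 2 measured red cell genes averaged 10.67 to 10.77 in KD and 9.80 to 10.32 in WT. The 8 macrophage markers averaged 9.25 to 9.48 in KD and 9.17 to 9.47 in WT. No marker list was at 0 in either group, since RMA gives every probe set a level. In cardiomyocytes the 8 cardiomyocyte markers averaged 13.08 to 13.12 in KD and 13.05 to 13.15 in WT. There the macrophage markers averaged 5.46 to 5.62 in KD and 5.50 to 6.21 in WT. The difference was below 0 for 8 of 8, where 50% of all genes were lower. All KD arrays lay below all WT arrays for 2 of the 8, where 6.21% of all genes did not overlap, counted in both directions. Of the 8, 6 averaged below the array median. WT cardiomyocyte array 3 was at 6.21, and WT arrays 1 and 2 were at 5.78 and 5.50. The part of these markers in the values of the regulators and their targets was not tested.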

How the data were processed

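The authors deposited log2 intensities of 35556 probe sets for 10 arrays of biotin-labelled cDNA. The submitters' processing notes name RMA and Partek without versions. RMA works by background correction, quantile normalization and summary over probes, and it shrinks differences between dim probes. Genes were named from the platform annotation: 21789 probe sets had 1 symbol, 1621 several (not used) and 12146 were not listed. The brightest probe set per gene left 19938 genes, with no filter on dim genes. One model was fitted to all arrays with limma 3.58.1 in R 4.3.3 (4 group means, eBayes with intensity trend, 6 residual and 6.81 prior degrees of freedom), with two-sided p-values adjusted after Benjamini and Hochberg across all genes, threshold 0.05. Permutation of 3 against 3 arrays cannot give a p below 0.1, and of 2 against 2 below 0.333. The code was tested on simulated data. The number of arrays limits the precision: the median 95% interval reached 0.25 either side in cardiomyocytes and 0.31 in hearts.

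The members and the 4 pathway and 9 marker lists were chosen with earlier results of these data known. Named list genes are up to 4 per list and kind of sample with the smallest p, and named like genes the 3 highest correlations, for Ppara, Ppargc1a and Esrrg, among genes with an SD of at least 0.1. Promoter windows came from RefSeq (GRCm38.p6). Alternatives were joint quantile normalization, median centring, a filter on dim genes (mean over 6.77, passed by all 10 members), averaging probe sets per gene, fits on each kind of sample alone, weights per array, eBayes without the trend and with the robust option, a block for replicate number, a loess trend (span 0.3) removed, a threshold of 0.1 and leaving out each array; the dimmer Ppargc1a probe set was added after seeing the data.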

Additional observations from a re-analysis of the deposited data

Results flagged for a closer look

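Uqcrfs1, a gene of the ERR and PGC-1 target list, was set apart because its arrays did not overlap in either kind of sample and ran in opposite directions: all 3 KD cardiomyocyte arrays were above all 3 WT arrays, and both KD hearts were below both WT hearts. The cardiomyocyte groups were barely apart, with the lowest KD array at 10.313 and the highest WT array at 10.307. The share of all genes with such an opposite order was not counted. The heart effect minus the cardiomyocyte effect was -0.58 (SE 0.15, unadjusted p 0.0023, adjusted p 0.999 by limma over all genes), so the difference did not pass the threshold. The gene was looked at in this way as a list gene named for its p-value.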

How the results depend on the processing

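No member and no named list gene passed an adjusted p of 0.05 under any alternative run (493 member values and 860 list gene values, of which 54 and 31 changed sign). The count of called genes was 0 in cardiomyocytes under each alternative. In hearts it was 1 with the replicate number as a block, and 0 to 303 when an array was left out: 2 without WT array 1, 1 without KD array 1 and 303 without KD array 2, which leaves the array with thymocyte markers as the lone KD heart, assumed to vary like the other groups. The count for the difference of effects ran from 0 to 237, with 237 again without KD heart array 2 and 2 without WT heart array 1. Same-numbered KD and WT arrays correlated at 0.15, 0.13 and -0.05 in cardiomyocytes, and differently numbered ones at -0.19 to 0.07. In hearts the values were 0.23 and -0.23. With 2 arrays per group, subtraction of the group means makes these equal in size, so they cannot decide on pairing. The numbers were not taken as pairs in the main fit, and the replicate block changed no other call.

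The sign of small differences depended on the setting, and the cause was not tested. In cardiomyocytes quantile normalization gave -0.0066 for Ppara, -0.019 for Vegfa and -0.014 for Cycs. Median centring gave -0.0032 for Ppara and -0.0062 for Vegfa. Array weights gave -0.034 for Ppara, -0.028 for Ppargc1a, -0.017 for Vegfa and 0.0053 for Idh3a, and trend removal gave -0.0099 for Vegfa. In hearts median centring gave -0.010 for Esrrg, -0.0062 for Rxra and -0.015 for Nrf1. Quantile normalization gave -0.025 for Nrf1, and trend removal gave -0.0055 for Nrf1 and 0.0012 for Prkaa1. For the difference of effects quantile normalization gave 0.028 for Ppard and -0.048 for Ppargc1b, median centring -0.020 for Ppargc1b, and trend removal 0.019 for Ppard.

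Of the 16 list genes named by p-value in each kind of sample, leaving out 1 array moved the value by over 1.5 times, or turned it, for 13 in cardiomyocytes and 7 in hearts. For the difference of effects it gave -0.84 to -0.024 for Ppargc1a, -0.39 to -0.12 for Esrra and -0.38 to -0.17 for Ppara. Some signs turned. In cardiomyocytes the ranges were -0.047 to 0.060 for Ppara, -0.0050 to 0.15 for Ppard, -0.17 to 0.11 for Pparg, -0.075 to 0.20 for Ppargc1a, -0.068 to 0.19 for Esrrb, -0.14 to 0.028 for Esrrg, -0.077 to 0.038 for Rxra, -0.070 to 0.047 for Hadhb, -0.090 to 0.027 for Etfdh, -0.038 to 0.23 for Sdhb, -0.19 to 0.022 for Cs, -0.077 to 0.048 for Vegfa, -0.057 to 0.026 for Idh3a, -0.0033 to 0.047 for Cycs, -0.065 to 0.092 for Tfb2m, -0.23 to 0.057 for Nrip1 and -0.19 to 0.23 for the dimmer Ppargc1a probe set. In hearts they were -0.17 to 0.28 for Ppard, -0.77 to 0.045 for Ppargc1a, -0.28 to 0.036 for Ppargc1b, -0.080 to 0.32 for Esrrb, -0.22 to 0.27 for Esrrg, -0.073 to 0.13 for Rxra, -0.14 to 0.18 for Nrf1, -0.17 to 0.011 for Mlycd, -0.35 to 0.047 for Klf15 and -0.20 to 0.022 for Mef2c. For the difference of effects they were -0.25 to 0.20 for Ppard, -0.21 to 0.072 for Pparg, -0.15 to 0.17 for Ppargc1b, -0.16 to 0.23 for Esrrb, -0.18 to 0.31 for Esrrg, -0.052 to 0.15 for Rxra and -0.027 to 0.30 for Nrf1.

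The heart median of the PPAR targets was -0.20 under quantile normalization, -0.34 under centring, -0.18 after trend removal and -0.28 to -0.24 with an array left out. That of the ERR and PGC-1 targets was -0.15 under quantile normalization, -0.12 after trend removal and -0.31 to -0.16 with an array left out. That of the NRF1 axis was -0.14 under centring, and that of the partners ran from -0.035 to 0.050 with an array left out. Counted over all probe sets, median percentiles in cardiomyocytes moved to 91.2 for Ppara, 96.9 for Ppargc1a, 72.4 for Esrrb and 57.8 for Nrf1, and in hearts to 68.0 for Ppargc1b, 79.9 for Esrra, 62.8 for Esrrb, 70.0 for Rxra and 58.1 for Nrf1.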
